A study of Penicillium oxalicum with 9 samples.

Results

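In the RNA-seq libraries of Penicillium oxalicum, 1 of the 3 libraries of the parental strain Δku70, replicate 1, was set apart from the other two by a group of genes with very different expression levels. The genes were chosen from the 3 Δku70 libraries on the log2(FPKM + 1) scale, where FPKM counts sequenced fragments per length of transcript and per amount of mapped sequence. A gene was called raised when replicate 1 was at least 3 above both replicates 2 and 3, which is 8-fold on FPKM + 1, and lowered when replicate 1 was at least 3 under both. Of 9721 genes listed, 92 were raised (0.946%) and 65 were lowered (0.669%), 157 in all. The Δku70 values chose these genes, so their difference within Δku70 is a description and was not tested.

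The series held 9 libraries, 3 each of ΔrsrA, ΔrsrB and Δku70. Δku70 lacks the ku70 gene, and ΔrsrA (deletion of POX01907) and ΔrsrB (deletion of POX08340) were made in Δku70, so all 9 libraries lack ku70. The labels give the genotype of the Δku70 libraries as WT, although their titles name Ku70. Spores of each strain were collected from PDA plates kept at 28 °C (4 days by the labels, 5 by the methods of the study), and the mycelium was grown with glucose for 24 h and then kept for 24 h in an inducing medium. For the carbon source of this medium the methods of the study give commercial corn starch. The labels give raw starch as well as Avicel, a purified crystalline cellulose, for the same libraries. The replicates are called biological in the study, but what a replicate number stands for is not given, and p-values measure the spread between these libraries.

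Ku70 binds broken DNA ends in non-homologous end joining, and fungal strains without it are used as parents because introduced DNA then integrates mostly at the homologous site. RsrA and RsrB are transcription factors. In filamentous fungi, the genes of a pathway can lie side by side on a chromosome and be transcribed together. The POX identifiers of the lists could be paired with gene names only for rsrA and rsrB, so the functions of the 157 genes are not given here, and whether consecutive POX numbers mark neighbouring genes was not tested.

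The total FPKM was 950456 in Δku70 replicate 1, against 998483 to 1086112 in the other 8 libraries. Both deletions were seen in the values, with rsrA at 0.01, 0.01 and 0.04 FPKM in ΔrsrA and rsrB listed at 0 in all 3 ΔrsrB libraries. In Δku70 replicate 1, rsrA was at 22.9 FPKM and rsrB at 30.6 FPKM, against 17.1 and 16.5 FPKM for rsrA and 35.7 and 30.6 FPKM for rsrB in Δku70 replicates 2 and 3. Across all genes, log2(FPKM + 1) of Δku70 replicate 1 correlated with replicates 2 and 3 with r = 0.915 and 0.906, while replicates 2 and 3 correlated with each other with r = 0.984. Without the 157 genes, these values were 0.956, 0.95 and 0.984, so replicate 1 also stood apart over the rest of the genes. These are correlations across genes, which are not independent replicates.

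The same rule, applied to each of the other 8 libraries against the other two of its own strain, found 3 raised and 4 lowered genes, 3 of the lowered genes in 2 libraries each, and at most 4 genes in any library. They were POX09363 (raised in Δku70 replicate 2), POX02383 and POX02384 (raised in Δku70 replicate 3), POX02208, POX08048 and POX08049 (lowered in both ΔrsrA replicate 1 and ΔrsrB replicate 1) and POX03760 (lowered in ΔrsrB replicate 1). None of them was among the 157 genes.

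**Figure D1:**
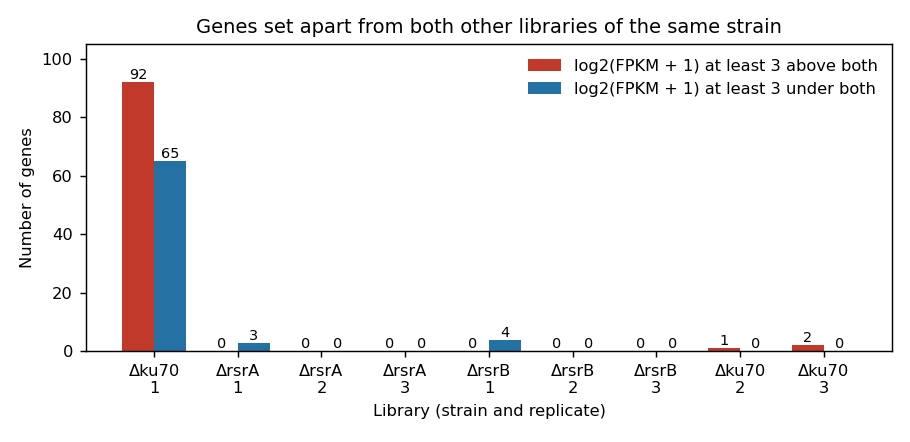
Number of genes (y axis) in each of the 9 libraries (x axis, strain and replicate) whose log2(FPKM + 1) was at least 3 above (red) or at least 3 under (blue) both other libraries of the same strain. Δku70 replicate 1 has 92 and 65 genes, and no other library has more than 4.

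The raised and lowered directions differed in size. At a limit of 5 in place of 3, 55 raised but 11 lowered genes were left, and at a limit of 8, 14 raised and 0 lowered genes. The smaller of the differences from replicates 2 and 3 had a median of 5.63 (3.02 to 10.80) in the raised genes and 3.79 (3.03 to 7.38) in the lowered genes. On untransformed FPKM, replicate 1 was a median of 83.6-fold above the mean of replicates 2 and 3 in the raised genes, with 43 genes at 100-fold or more and 8 at 1000-fold or more. The lowered genes had a median of 27.2-fold in the opposite direction, leaving out 3 genes that are listed at 0 in replicate 1. Just inside the limit were POX05540 (3.02) and POX06689 (3.04) in the raised direction and POX01832 (3.03) and POX04429 (3.08) in the lowered direction. Just outside were POX01183 (2.96) and POX02438 (2.96) on the raised side and POX06530 (2.98) and POX03389 (2.97) on the lowered side.

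The raised genes took a large part of the transcripts of a single library. Their summed FPKM was 9.6% of the total of Δku70 replicate 1, against 0.06% to 0.0629% in ΔrsrA, 0.0456% to 0.0518% in ΔrsrB, and 0.0598% and 0.0505% in Δku70 replicates 2 and 3. Their median level was 314 FPKM in Δku70 replicate 1, against 1.34, 1.68 and 1.8 FPKM in ΔrsrA, 2.44, 2.41 and 2.76 FPKM in ΔrsrB, and 3.21 and 2.91 FPKM in Δku70 replicates 2 and 3. Among the 100 highest genes, 15 were raised genes in Δku70 replicate 1 and none in any of the other 8 libraries. The level in Δku70 replicate 1 was above all other 8 libraries in 91 of the 92 genes, and by at least the limit of 3 in 82.

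The lowered genes were distributed differently. They made up 0.267% of the total in Δku70 replicate 1, against 3.96% to 4.4% in ΔrsrA, 3.61% to 4.29% in ΔrsrB, and 4.53% and 5.14% in Δku70 replicates 2 and 3. Their median level was 4.66 FPKM in Δku70 replicate 1, against 68.0, 77.0 and 64.7 FPKM in ΔrsrA, 63.1, 50.5 and 73.5 FPKM in ΔrsrB, and 115 and 152 FPKM in Δku70 replicates 2 and 3. None was among the 100 highest genes of Δku70 replicate 1, against 9 in replicate 2 and 11 in replicate 3. Here Δku70 replicate 1 was under all other 8 libraries in 50 of 65 genes, and by the limit of 3 in 19, since a good part of the lowered genes was also low in a mutant.

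**Figure D2:**
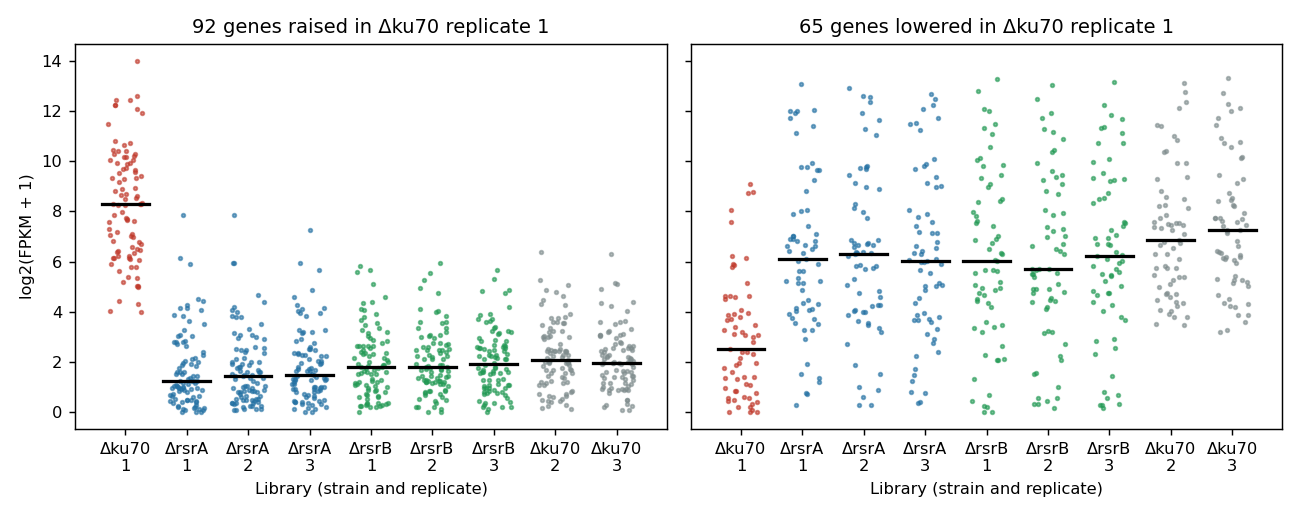
Level of each of the 92 raised genes (left) and the 65 lowered genes (right) on the log2(FPKM + 1) scale (y axis) in the 9 libraries (x axis, strain and replicate), with a point for each gene and a black line at the median. The raised genes have a median of 314 FPKM in Δku70 replicate 1 and of at most 3.21 FPKM elsewhere, whereas the lowered genes spread widely in ΔrsrA and ΔrsrB.

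Among the raised genes, POX06051 had the largest difference and the highest level. It was at 16246 FPKM in Δku70 replicate 1, against 5.92, 6.95 and 15.4 FPKM in ΔrsrA, 6.72, 6.68 and 5.42 FPKM in ΔrsrB, and 8.13 and 7.35 FPKM in Δku70 replicates 2 and 3. It was thus the gene with rank 2 of its library, against ranks 5094 to 7280 in the other 8. POX08485 was at 4384 FPKM in Δku70 replicate 1, against 0.59, 0.72 and 3.70 FPKM in ΔrsrA, 1.26, 1.18 and 0.73 FPKM in ΔrsrB, and 1.53 and 1.52 FPKM in Δku70 replicates 2 and 3. POX01166 was at 6193 FPKM in Δku70 replicate 1, against 1.21, 2.03 and 5.80 FPKM in ΔrsrA, 1.37, 2.05 and 2.20 FPKM in ΔrsrB, and 1.91 and 2.78 FPKM in Δku70 replicates 2 and 3. All 3 were thus at rank 23 or higher in Δku70 replicate 1 and at rank 5094 or lower in every other library.

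POX05587 was 4024-fold above the mean of Δku70 replicates 2 and 3, the largest fold of all. It was at 2917 FPKM in Δku70 replicate 1, against 0.55, 0.63 and 1.66 FPKM in ΔrsrA, 0.50, 0.85 and 1.09 FPKM in ΔrsrB, and 0.62 and 0.83 FPKM in Δku70 replicates 2 and 3. POX04786 was at 4809 FPKM in Δku70 replicate 1, against 1.32, 1.56 and 3.75 FPKM in ΔrsrA, 0.92, 1.33 and 0.78 FPKM in ΔrsrB, and 3.24 and 1.64 FPKM in Δku70 replicates 2 and 3. For both genes the 8 other libraries lay within a few FPKM of each other. POX00063, POX01937 and POX05571 completed the 8 largest differences, with 1405, 3886 and 1349 FPKM in Δku70 replicate 1.

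In POX06051, POX08485, POX01166, POX05587 and POX04786, ΔrsrA replicate 3 was the highest of the 8 other libraries. This was counted over the 22 raised genes with at least 1000 FPKM in Δku70 replicate 1, a count made after the values had been seen. ΔrsrA replicate 3 was the highest ΔrsrA library in 17 of the 22 genes, with a median of 1.42 times the mean of ΔrsrA replicates 1 and 2 (POX08485 had 5.65 times and POX01166 3.58 times). Among all genes at up to 30 FPKM in the mutant libraries, replicate 3 was the highest of ΔrsrA in 31.6%. Each of the other 5 mutant libraries was the highest of its strain in 1 to 8 of the 22 genes. Its part in any result was not tested.

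Part of the raised genes fell into runs of consecutive POX numbers. Runs of at least 2 numbers held 37 of the 92 raised genes (40.2%) in 10 runs, and 11 of the 65 lowered genes (16.9%) in 5 runs. Within 5 numbers of another gene of the same direction were 44 raised and 17 lowered genes. The longest raised run had 15 genes, POX01168 to POX01182, and the longest lowered run 3.

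The run POX01168 to POX01182 summed to 10549 FPKM in Δku70 replicate 1, which is 1.11% of that library. The same 15 genes summed to 11.1, 13.8 and 15.9 FPKM in ΔrsrA, 92.0, 88.2 and 110 FPKM in ΔrsrB, and 53.4 and 50.8 FPKM in Δku70 replicates 2 and 3. Each of the 15 genes was between 155 and 1820 FPKM in Δku70 replicate 1, and the folds over the mean of replicates 2 and 3 ran from 18.0 in POX01170 to 661 in POX01179, with a median of 348. POX01179 was at 1820 FPKM in Δku70 replicate 1, against 0.96, 2.17 and 2.14 FPKM in ΔrsrA, 1.99, 2.54 and 8.37 FPKM in ΔrsrB, and 2.24 and 3.27 FPKM in Δku70 replicates 2 and 3. POX01170 was at 155 FPKM in Δku70 replicate 1, against 0.83, 1.22 and 0.82 FPKM in ΔrsrA, 8.19, 7.45 and 6.72 FPKM in ΔrsrB, and 9.95 and 7.29 FPKM in Δku70 replicates 2 and 3. Its low fold thus came with a higher level in replicates 2 and 3 and a lower level in replicate 1 than in most of the run.

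The run was wider than the rule. From POX01166 to POX01184, 17 of 19 consecutive numbers were raised genes, and POX01167 and POX01183 fell short of the limit. POX01167 was at 91.3 FPKM in Δku70 replicate 1, against 3.37, 3.60 and 3.29 FPKM in ΔrsrA, 29.7, 8.74 and 7.94 FPKM in ΔrsrB, and 16.1 and 10.9 FPKM in Δku70 replicates 2 and 3. POX01183 was at 44.7 FPKM in Δku70 replicate 1, against 0, 0.22 and 0.16 FPKM in ΔrsrA, 11.95, 10.6 and 6.96 FPKM in ΔrsrB, and 4.86 and 2.99 FPKM in Δku70 replicates 2 and 3. Both had their highest value in Δku70 replicate 1, as did the 17 raised genes. The 19 numbers together summed to 17186 FPKM, 1.81% of Δku70 replicate 1.

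The span had a sharp edge on the side of the lower numbers. POX01165, the number before POX01166, was a lowered gene, at 1.65 FPKM in Δku70 replicate 1, against 48.4, 73.6 and 49.6 FPKM in ΔrsrA, 8, 43.9 and 123 FPKM in ΔrsrB, and 67.2 and 80.1 FPKM in Δku70 replicates 2 and 3. It was also the lowered gene with the widest spread within ΔrsrB, with an SD of 1.91 on the log2(FPKM + 1) scale between 3 libraries. Beyond the other end, POX01185 to POX01189 were not raised genes but also had their highest value in Δku70 replicate 1. POX01188 was at 152 FPKM in Δku70 replicate 1, and at 36.7 and 24.8 FPKM in Δku70 replicates 2 and 3. In the mutants POX01188 was at 0.07, 0.13 and 0.07 FPKM in ΔrsrA, against 18, 16.6 and 13.4 FPKM in ΔrsrB. Raised and lowered genes with adjoining numbers occurred in 4 pairs, POX01166 with POX01165, POX01833 with POX01832, POX03368 with POX03369, and POX08897 with POX08898.

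**Figure D3:**
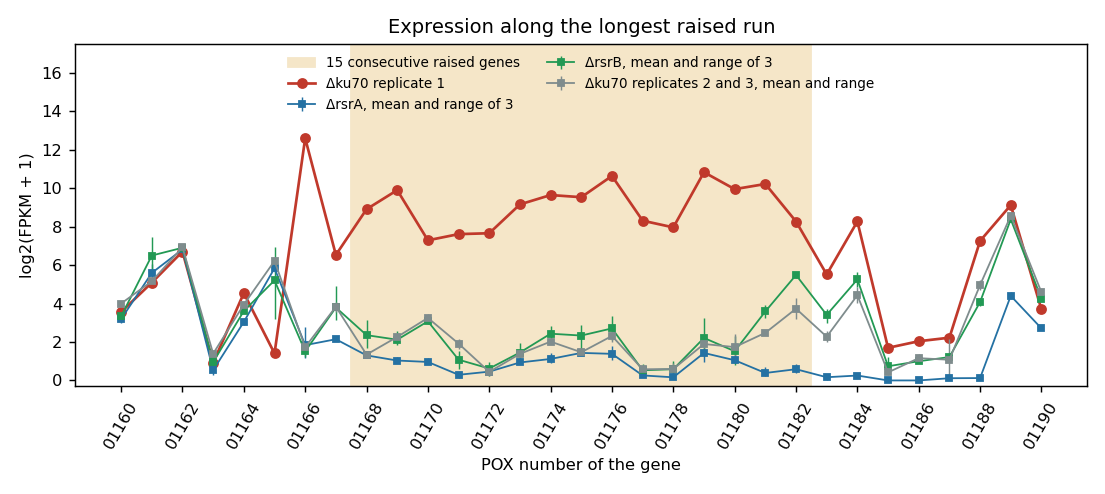
Level on the log2(FPKM + 1) scale (y axis) of the genes POX01160 to POX01190 (x axis, POX number) in Δku70 replicate 1 (red), ΔrsrA (blue), ΔrsrB (green) and Δku70 replicates 2 and 3 (grey), the last 3 as the mean with the lowest and highest library. The 15 shaded genes lie between 155 and 1820 FPKM in Δku70 replicate 1. Among them, ΔrsrB lies farthest above ΔrsrA in POX01181 and POX01182, at the right end of the run.

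Within the run ΔrsrA and ΔrsrB were compared with each other, a comparison that the choice of the genes did not use. All 3 ΔrsrA libraries were under all 3 ΔrsrB libraries in 9 of the 15 genes, where 46.2% of all genes listed had this order. With limma on log2(FPKM + 1), 11 of the 15 genes passed the filter of a mean of 1 FPKM in the 6 mutant libraries, and 7 of these were lower in ΔrsrA at a Benjamini-Hochberg adjusted p under 0.05, beside 45.1% of all genes tested. None was higher in ΔrsrA. Of the 11, POX01170, POX01173, POX01181 and POX01182 passed the filter through ΔrsrB only and could hardly be called higher in ΔrsrA, and 4 of the 7 others were lower. With the replicate number as a block, POX01175 and POX01179 passed as well (limma, adjusted p = 0.0222 and 0.0409). POX01168 no longer passed with scaling by the median of ratios (0.0838), with quantile normalization (0.144), or without any 1 of the ΔrsrA libraries (0.0595 to 0.0807). With 1 fit over all 9 libraries, POX01182 was the only 1 of the 7 to pass (limma, adjusted p = 0.0061). The difference was largest at the end of the run. POX01182 was at 0.30, 0.44 and 0.80 FPKM in ΔrsrA, against 46.8, 46.1 and 38.8 FPKM in ΔrsrB, with 307 FPKM in Δku70 replicate 1 and 18.5 and 8.08 FPKM in Δku70 replicates 2 and 3. The limma difference was -4.90 (SE 0.158, adjusted p = 1.18e-06), and in POX01181 it was -3.20 (SE 0.222, adjusted p = 2.97e-05). POX01184, beyond the end of the run, was at 0.11, 0.16 and 0.32 FPKM in ΔrsrA, against 49.0, 36.9 and 28.2 FPKM in ΔrsrB, 307.5 FPKM in Δku70 replicate 1 and 28.0 and 15.1 FPKM in Δku70 replicates 2 and 3. Its difference of -4.997 (limma, SE 0.204, adjusted p = 3.40e-06) was the largest between the mutants among the raised genes. POX01184 also passed the filter through ΔrsrB only, so the direction of its call was all but fixed.

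The second raised run, POX03927 to POX03931, had 5 genes, which did not share 1 pattern in the mutants. POX03928 was at 31.4 FPKM in Δku70 replicate 1, against 59.1, 60.6 and 60.5 FPKM in ΔrsrA, 1.06, 1.57 and 1.91 FPKM in ΔrsrB, and 0.64 and 1.21 FPKM in Δku70 replicates 2 and 3. It was the only raised gene in which a mutant exceeded Δku70 replicate 1 in all 3 libraries, and the limma difference of ΔrsrA from ΔrsrB was 4.62 (SE 0.145, adjusted p = 1.08e-06). POX03929 was at 412 FPKM in Δku70 replicate 1, against 15.8, 14.7 and 18.0 FPKM in ΔrsrA, 1.2, 1.3 and 0.95 FPKM in ΔrsrB, and 0.34 and 0.94 FPKM in Δku70 replicates 2 and 3. Its limma difference was 3.00 (SE 0.135, adjusted p = 4.88e-06), also higher in ΔrsrA.

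The other genes of that run were low in both mutants. POX03930 was at 1363 FPKM in Δku70 replicate 1, against 0.52, 0.74 and 1.46 FPKM in ΔrsrA, 1.18, 1.42 and 1.11 FPKM in ΔrsrB, and 2.21 and 1.98 FPKM in Δku70 replicates 2 and 3. POX03927 and POX03931 were at 81.7 and 81.0 FPKM in Δku70 replicate 1, and no other library exceeded 0.36 FPKM in POX03927 or 2.41 FPKM in POX03931. In the third run, POX06599, POX06600 and POX06601 were at 685, 70.0 and 357 FPKM in Δku70 replicate 1. POX06601 was at 1.67, 1.74 and 1.39 FPKM in ΔrsrA, against 0.25, 0.26 and 0.21 FPKM in ΔrsrB and 0.30 and 0.17 FPKM in Δku70 replicates 2 and 3. It was above both other strains' levels in ΔrsrA, yet more than 100-fold under Δku70 replicate 1. The 7 other raised runs were pairs. No raised or lowered gene was in the run POX08686 to POX08693, whose 8 genes were called higher in ΔrsrA than in Δku70.

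Over all raised genes, the mutants were compared with each other because their 6 libraries had no part in the choice of the genes. Of the 92 genes, 71 passed the filter, 18 of them through 1 mutant only, and 41 differed between ΔrsrA and ΔrsrB (limma, Benjamini-Hochberg adjusted p under 0.05). This is 57.7%, beside 60.3% of the 8491 genes tested. In the 18 genes that passed through 1 mutant only, the direction of any call was all but fixed by the filter. There were 15 raised genes higher in ΔrsrA (21.1%, beside 15.2% of all genes tested) and 26 lower (36.6%, beside 45.1%), with a median difference of -0.26 beside -0.345 over all genes tested. The count was thus near that of all genes, and its split depended on the scaling. With each library scaled by the median of its ratios, the median over all genes was -0.008 in place of -0.345, and 21 raised genes were higher and 20 lower in ΔrsrA, beside 26.1% and 23.7% of all genes.

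Outside the runs, POX02308 was lower in ΔrsrA. It was at 0, 0.37 and 0.27 FPKM in ΔrsrA, against 15.8, 9.16 and 8.47 FPKM in ΔrsrB, with 643 FPKM in Δku70 replicate 1 and 11.1 and 4.87 FPKM in Δku70 replicates 2 and 3. The limma difference was -3.29 (SE 0.248, adjusted p = 4.25e-05). POX02308 passed the filter through ΔrsrB only, so the direction of its call was all but fixed. POX01937 was higher in ΔrsrA, at 22.0, 24.6 and 28.0 FPKM in ΔrsrA, against 4.89, 5.73 and 4.37 FPKM in ΔrsrB, with 3886 FPKM in Δku70 replicate 1 and 4.32 and 4.62 FPKM in Δku70 replicates 2 and 3 (limma, 2.11, SE 0.139, adjusted p = 2.40e-05). POX00005 was higher in ΔrsrA by 1.95 (limma, adjusted p = 0.000256), at 13.1, 15.7 and 16.6 FPKM in ΔrsrA, against 3.72, 4.07 and 2.00 FPKM in ΔrsrB. In all 3 genes the mutant libraries did not overlap, and all 6 were far under Δku70 replicate 1. The genes were named for their large called differences between the mutants, so the lack of overlap nearly follows from that choice. All 3 ΔrsrA libraries were under all 3 ΔrsrB libraries in 46.2% of all genes listed. With 1 fit over all 9 libraries, whose spread includes Δku70 replicate 1, POX02308, POX01937 and POX00005 no longer passed (limma, adjusted p = 0.0936, 0.444 and 0.341), nor did POX01181 and POX03929 (0.167 and 0.205).

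On the log2(FPKM + 1) scale, the mean of a mutant was nearer to Δku70 replicate 1 than to the mean of replicates 2 and 3 in only 3 raised genes, POX03928 and POX05540 in ΔrsrA and POX05011 in ΔrsrB. For the other 89 both mutants were nearer to replicates 2 and 3. POX05540, just inside the limit, was at 30.9 FPKM in Δku70 replicate 1, against 20.2, 17.1 and 16.2 FPKM in ΔrsrA, 4.60, 3.75 and 3.8 FPKM in ΔrsrB, and 2.94 and 2.80 FPKM in Δku70 replicates 2 and 3. In 53 of the 92 raised genes all 3 ΔrsrA libraries were under both Δku70 replicates 2 and 3, beside 49.8% of all genes listed, and in 34 all 3 ΔrsrB libraries were, beside 24.4%. Replicates 2 and 3 had a part in choosing the genes, so nothing is read from these counts.

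The lowered genes were nearer to Δku70 replicate 1 in a mutant more often. This held for 18 of 65 genes in ΔrsrA and 16 in ΔrsrB, of which 7 were shared, so that 11 genes were nearer in ΔrsrA alone, 9 in ΔrsrB alone and 38 in neither. More genes were merely under Δku70 replicates 2 and 3. All 3 ΔrsrA libraries were under both in 37 genes and all 3 ΔrsrB libraries in 30, beside 49.8% and 24.4% of all genes listed. These counts rest on the Δku70 values that chose the genes and were not tested.

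**Figure D4:**
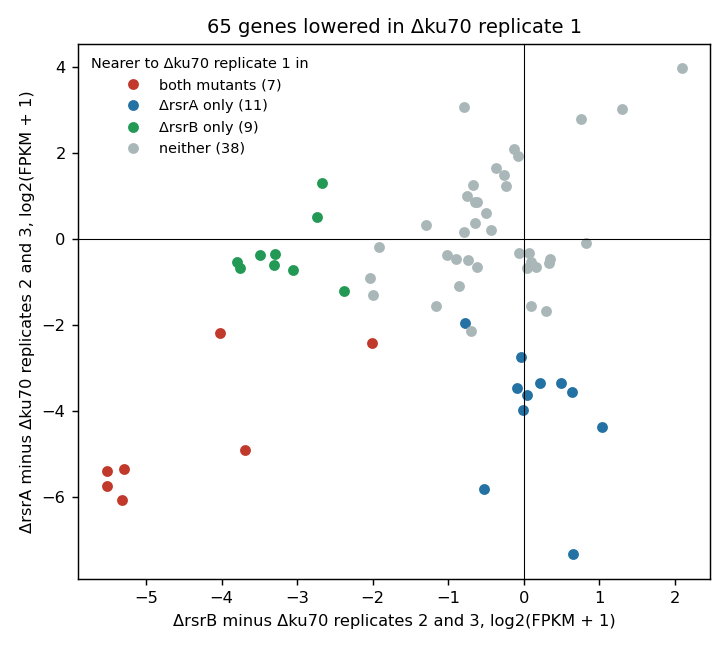
Mean log2(FPKM + 1) of ΔrsrA (y axis) and ΔrsrB (x axis), each minus the mean of Δku70 replicates 2 and 3, for the 65 lowered genes, with a point for each gene. Colours show in which mutant the gene was nearer to Δku70 replicate 1, with 7 genes in both (lower left), 11 in ΔrsrA only, 9 in ΔrsrB only and 38 in neither.

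The longest lowered run, POX00861 to POX00863, was among the 7 genes nearer to Δku70 replicate 1 in both mutants. POX00862 was at 23.3 FPKM in Δku70 replicate 1, against 15.9, 17.8 and 11.7 FPKM in ΔrsrA, 21.5, 17.0 and 15.2 FPKM in ΔrsrB, and 627 and 1160 FPKM in Δku70 replicates 2 and 3. POX00861 was at 15.6 FPKM in Δku70 replicate 1, against 8.68, 11.3 and 6.60 FPKM in ΔrsrA, 9.91, 7.90 and 6.50 FPKM in ΔrsrB, and 298 and 564 FPKM in Δku70 replicates 2 and 3. POX00863 was at 1.11 FPKM in Δku70 replicate 1, against 0.21, 0.21 and 0.30 FPKM in ΔrsrA, 0.61, 0.10 and 0.21 FPKM in ΔrsrB, and 25.0 and 96.6 FPKM in Δku70 replicates 2 and 3. In all 3 genes 7 libraries were low and only Δku70 replicates 2 and 3 were high, and every mutant library was under Δku70 replicate 1. In POX03666 every mutant library was likewise under Δku70 replicate 1, at 11.8 FPKM in Δku70 replicate 1, against 1.30, 0.82 and 0.68 FPKM in ΔrsrA, 3.31, 1.96 and 1.69 FPKM in ΔrsrB, and 108 and 153 FPKM in Δku70 replicates 2 and 3. POX02048, POX07909 and POX09210 were the other genes nearer to Δku70 replicate 1 in both mutants.

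Of the lowered genes, 64 passed the filter for the comparison of the mutants, 8 of them through 1 mutant only, and 49 differed between ΔrsrA and ΔrsrB (limma, Benjamini-Hochberg adjusted p under 0.05). This is 76.6%, beside 60.3% of all genes tested. Higher in ΔrsrA were 28 (43.8%, beside 15.2%) and lower were 21 (32.8%, beside 45.1%). These counts hold the 8 genes that passed the filter through 1 mutant only, which were all called and whose direction the filter all but fixed. Of these, POX09588, POX09589, POX09606, POX09623 and POX09726 were higher in ΔrsrA, and POX02472, POX03666 and POX08898 were lower. The median difference was 0.53, beside -0.345 over all genes tested, and all 28 higher and 15 of the 21 lower genes differed by at least 2-fold on FPKM + 1, where 21.1% of all genes tested passed both limits. With each library scaled by the median of its ratios, 32 were higher and 17 lower, beside 26.1% and 23.7% of all genes tested. By share, the lower genes were then not fewer than over all genes. With 1 fit over all 9 libraries, whose spread includes Δku70 replicate 1, 9 were higher and 8 lower, beside 11.3% and 35.3%. By share, fewer lowered genes were then called than over all genes (46.6%).

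The gene with the largest difference between the mutants was POX07173. It was at 1.53, 0.99 and 1.8 FPKM in ΔrsrA, against 646, 603 and 593 FPKM in ΔrsrB, with 9.53 FPKM in Δku70 replicate 1 and 363 and 422 FPKM in Δku70 replicates 2 and 3. The limma difference was -7.99 (SE 0.142, adjusted p = 9.17e-08). POX05306 was at 97.3, 101 and 61.4 FPKM in ΔrsrA, against 4325, 3364 and 3295 FPKM in ΔrsrB, with 59.6 FPKM in Δku70 replicate 1 and 2773 and 1138 FPKM in Δku70 replicates 2 and 3 (limma, -5.41, SE 0.210, adjusted p = 2.74e-06). In both genes the ΔrsrA libraries and Δku70 replicate 1 were low and the other 5 libraries were high.

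In POX08898 and POX08482, ΔrsrA and Δku70 replicate 1 were also under the other 5 libraries. POX08898 was at 0.68, 0.19 and 0.29 FPKM in ΔrsrA, against 49.1, 45.2 and 67.2 FPKM in ΔrsrB, with 7.41 FPKM in Δku70 replicate 1 and 77.8 and 75.9 FPKM in Δku70 replicates 2 and 3 (limma, -5.30, SE 0.197, adjusted p = 2.28e-06). It had passed the filter through ΔrsrB only. POX08482 was at 1.88, 2.65 and 2.23 FPKM in ΔrsrA, against 63.1, 50.8 and 63.3 FPKM in ΔrsrB, with 3.46 FPKM in Δku70 replicate 1 (limma, -4.21, SE 0.142, adjusted p = 1.49e-06). The adjoining pair POX03095 and POX03096 was also nearer to Δku70 replicate 1 in ΔrsrA alone. POX03095 was at 130, 115 and 141 FPKM in ΔrsrA, against 2578, 1875 and 1678 FPKM in ΔrsrB, with 23.7 FPKM in Δku70 replicate 1 and 2079 and 1971 FPKM in Δku70 replicates 2 and 3. The other such genes were POX02472, POX03369, POX06395, POX06513 and POX08902, and POX06513 was at 884, 837 and 952 FPKM in ΔrsrA, against 7181, 5736 and 4813 FPKM in ΔrsrB and 189 FPKM in Δku70 replicate 1.

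In the opposite direction, POX05188 and POX00730 were low in ΔrsrB. POX05188 was at 89.8, 80.5 and 85.7 FPKM in ΔrsrA, against 3.19, 5.61 and 4.86 FPKM in ΔrsrB, with 1.16 FPKM in Δku70 replicate 1 and 30.3 and 37.9 FPKM in Δku70 replicates 2 and 3 (limma, 3.98, SE 0.175, adjusted p = 4.40e-06). POX00730 was at 264, 282 and 216 FPKM in ΔrsrA, against 28.2, 29.1 and 20.1 FPKM in ΔrsrB, with 8.66 FPKM in Δku70 replicate 1 and 164 and 188 FPKM in Δku70 replicates 2 and 3 (limma, 3.26, SE 0.172, adjusted p = 9.45e-06). POX06151 differed from these genes, since ΔrsrB was not near Δku70 replicate 1. It was at 451, 496 and 498 FPKM in ΔrsrA, against 29.9, 20.3 and 55.5 FPKM in ΔrsrB, with 2.37 FPKM in Δku70 replicate 1 and 52.3 and 61.2 FPKM in Δku70 replicates 2 and 3 (limma, 3.85, SE 0.317, adjusted p = 6.38e-05).

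The other 7 genes nearer to Δku70 replicate 1 in ΔrsrB alone had high POX numbers, POX09578, POX09588, POX09589, POX09606, POX09623, POX09720 and POX09726. The pair POX09588 and POX09589 is an example. POX09588 was at 16.2, 13.4 and 8.76 FPKM in ΔrsrA, against 0.18, 0.36 and 0.73 FPKM in ΔrsrB, with 0.36 FPKM in Δku70 replicate 1 and 19.2 and 17.8 FPKM in Δku70 replicates 2 and 3 (limma, 3.25, SE 0.244, adjusted p = 4.13e-05). It had passed the filter through ΔrsrA only. POX09589 was listed at 0 in Δku70 replicate 1, and it was at 8.73, 10.6 and 4.18 FPKM in ΔrsrA, against 0, 0.47 and 0.47 FPKM in ΔrsrB and 10.03 and 13.8 FPKM in Δku70 replicates 2 and 3. In all, 9 of the 65 lowered genes (13.8%) were numbered from POX09554 on, beside 2.83% of all genes listed and 2 of the 92 raised genes. The number POX09554 was set by a search of these same values, given under other observations, and 5 of the 9 genes were found in that search. These shares are thus a description and were not tested.

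The remaining lowered genes with such numbers, POX09676 and POX09677, were low in Δku70 replicate 1 only. POX09677 had the largest difference of the lowered genes, at 0.30 FPKM in Δku70 replicate 1, against 876, 862 and 660 FPKM in ΔrsrA, 225, 158 and 374 FPKM in ΔrsrB, and 215 and 375 FPKM in Δku70 replicates 2 and 3. POX09676 was at 0.67 FPKM in Δku70 replicate 1, against 237, 214 and 188 FPKM in ΔrsrA, 78.7, 50.0 and 104 FPKM in ΔrsrB, and 90.9 and 150 FPKM in Δku70 replicates 2 and 3. The ΔrsrA libraries were above all ΔrsrB libraries in both, with limma differences of 1.74 (SE 0.296, adjusted p = 0.00189) in POX09677 and 1.5 (SE 0.249, adjusted p = 0.00167) in POX09676. With 1 fit over all 9 libraries these no longer passed (limma, adjusted p = 0.448 in POX09677 and 0.406 in POX09676).

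Several of the lowered genes with the largest differences were high in all 8 other libraries. POX07576 was at 0.78 FPKM in Δku70 replicate 1, against 135, 479 and 564 FPKM in ΔrsrA, 339, 669 and 1085 FPKM in ΔrsrB, and 176 and 710 FPKM in Δku70 replicates 2 and 3. Its mutant libraries overlapped, and the limma difference of -0.91 (SE 0.606, adjusted p = 0.224) did not pass the threshold, though it did with the replicate number as a block (adjusted p = 0.00261). POX06086 was at 2.66 FPKM in Δku70 replicate 1, against 614, 556 and 522 FPKM in ΔrsrA, 195, 129 and 101 FPKM in ΔrsrB, and 161 and 196 FPKM in Δku70 replicates 2 and 3. POX04781, the lowered gene with the highest level, was at 439 FPKM in Δku70 replicate 1, against 8629, 7909 and 6545 FPKM in ΔrsrA, 9909, 8450 and 9110 FPKM in ΔrsrB, and 8919 and 10229 FPKM in Δku70 replicates 2 and 3. It had ranks 4 to 10 in the 8 other libraries and rank 369 in Δku70 replicate 1, and its mutants did not differ past the threshold (limma, -0.26, SE 0.127, adjusted p = 0.115, and 0.0398 with quantile normalization).

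Within the mutants, both directions had a higher median spread between replicates than all genes tested. The median SD of log2(FPKM + 1) between the 3 ΔrsrA libraries was 0.173 in the 71 raised genes and 0.221 in the 64 lowered genes, beside 0.138 over all genes tested. In ΔrsrB it was 0.210 and 0.314, beside 0.173. SD over 1 occurred in 4 lowered genes in ΔrsrB, POX01165, POX09204, POX07227 and POX04593, in 1 in ΔrsrA, POX07576, and in no raised gene in either mutant. These are descriptions with no test.

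The Δku70 library also bears on the comparison of each mutant with Δku70, which shares that library and which the choice of the genes used, so nothing is read from these counts. With all 3 Δku70 libraries, limma called 7 raised and 8 lowered genes in ΔrsrA, beside 38.7% of all genes tested, and 0 and 0 in ΔrsrB, beside 3.95% (unadjusted p under 0.05 in 14 and 16 genes in ΔrsrA and 3 and 10 in ΔrsrB). Without Δku70 replicate 1, a comparison added after the data had been seen, it called 40 raised and 46 lowered genes in ΔrsrA, beside 53.6% of all genes, and 8 and 27 in ΔrsrB, beside 10.9%.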

How the data were processed

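Poly(A) RNA from mycelium of 3 strains was sequenced by the authors on a BGISEQ platform. Per the labels, bcl2fastq and HISAT2 were used, whereas the methods of the study name BWA, Bowtie2, RSEM and NOISeq. Versions and settings are not given in the sources used here. The authors deposited FPKM values, 1 list of 9721 genes per library, rounded to hundredths. FPKM is relative to the library total, and as read depth is not given, counting errors and detection limits are left out and a value of 0 is called listed at 0.

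Values were transformed to log2(FPKM + 1), with a pseudocount of 1 that understates changes of low genes. The members and lists were chosen with earlier results of these data known. ΔrsrA and ΔrsrB were compared in R 4.3.3 with limma 3.58.1 (lmFit, then eBayes with a trend). Genes whose FPKM averaged 1 or more over these 6 libraries were tested, with Benjamini-Hochberg adjustment over all genes tested and a threshold of 0.05. The other values were computed with Python 3.11.15, pandas 2.3.3 and numpy 2.4.6. The limma steps were tested on simulated data. Deviations of same-numbered ΔrsrA and ΔrsrB libraries from their strain means correlated across the genes tested with r = 0.583, 0.107 and 0.468 for replicates 1, 2 and 3. Across all genes listed, r was 0.542, 0.067 and 0.426, so replicate 2 was over the limit of 0.1 for calling them paired only in the genes tested. The pairing comes from the values alone, and the main fit did not use it. The main fit called 60.3% of the genes tested, and the fit with the replicate number as a block called 69%.

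Genes named are rsrA and rsrB; those of the 3 longest runs of each direction with ties; in each direction the 8 largest differences, the 3 highest levels, those next to the limit and the 4 largest called differences of each sign between the mutants; and genes in which a mutant lay beyond Δku70 replicate 1. Other genes were named after their values had been seen. The alternatives were another pseudocount, filter, limit or scaling, 1 fit over all 9 libraries, the replicate block, and leaving out each library. Older identifiers could not be matched to the reference table, so no names, coordinates or sequences are given.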

Additional observations from a re-analysis of the deposited data

How the results depend on the processing

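The number of raised genes, 92 at the main setting, ran from 64 at a limit of 4 to 141 at a limit of 2. It was 123 at a pseudocount of 0.1 and 75 at a pseudocount of 5. Leaving out Δku70 replicate 2 or 3 gave 97 to 108, and another scaling or filter gave 92 to 95. The number of lowered genes was less stable, with 150 at a pseudocount of 0.1, 35 at a pseudocount of 5, 176 at a limit of 2, 26 at a limit of 4, and 79 to 98 without 1 of Δku70 replicates 2 and 3 (98 without replicate 2). The longest raised run had 11 to 19 genes under the alternatives, and the longest lowered run 5 at a pseudocount of 0.1. The same pseudocount gave up to 27 genes set apart in another library.

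Between the mutants, raised genes lower in ΔrsrA numbered 12 with a mean FPKM of at least 5, where fewer genes were tested. Quantile normalization gave 24 raised genes higher and 17 lower in ΔrsrA, beside 22.8% and 24.2% of all genes tested. With 1 fit over all 9 libraries, whose common spread includes the Δku70 libraries, 1 raised gene was higher and 3 lower, and 9 lowered genes were higher and 8 lower in ΔrsrA. Of all genes tested, 11.3% were higher and 35.3% lower in that fit, so by share both directions were called less often than all genes (46.6%). Leaving out 1 mutant library gave 14 to 16 raised genes higher, 22 to 26 raised genes lower, 26 to 31 lowered genes higher and 19 to 21 lowered genes lower. With the replicate number as a block, the counts were 16 and 30 for raised and 30 and 22 for lowered genes, beside 17.3% and 51.7% of all genes tested. No count thus moved by over 1.5 times, and the block changed no call of a named gene other than those of POX01175, POX01179 and POX07576. Leaving out Δku70 replicate 1 moved the counts called against Δku70 in ΔrsrA to 40 raised and 46 lowered genes, and in ΔrsrB to 8 raised and 27 lowered genes. Of 763 differences recomputed for 56 named genes, 695 kept their direction and side of the threshold, 41 no longer passed it, 16 passed it newly and 11 changed sign, in 6 genes that did not pass at the main setting. POX04683 (-0.038) was at 0.005 with TPM and at 0.324 with the median of ratios, where it passed (limma, adjusted p = 0.0355). With the median of ratios POX00862 (-0.238) was at 0.103 and POX04781 (-0.257) at 0.105, and with quantile normalization POX00862 was at 0.133 and POX03930 (-0.258) at 0.03. Leaving out 1 mutant library gave -0.069 to 0.275 in POX00861, -0.139 to 0.672 in POX01166 and -0.103 to 0.04 in POX04683. The cause of the changes with pseudocount and limit was not tested. Depth is not given, which limits statements on genes under 1 FPKM.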

Other observations

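The high POX numbers among the lowered genes were followed beyond the rule, in a search made after the values had been seen. Genes at no more than 1 FPKM in Δku70 replicate 1 and all 3 ΔrsrB libraries and at least 1 FPKM in the other 5 libraries numbered 31, of which 26 (83.9%) lay between POX09554 and POX09814, a stretch that holds 256 of the 9721 genes listed (2.63%). Both ends of the stretch, POX09554 and POX09814, are themselves among the 31 genes. The stretch was thus drawn around genes already found, so its share is a description and was not tested. Only 5 of the 31 were among the lowered genes, POX09588, POX09589, POX09606, POX09623 and POX09726. POX09604 is an example outside the rule, at 0.17 FPKM in Δku70 replicate 1, against 13.5, 12.4 and 7.66 FPKM in ΔrsrA, 0.17, 0.17 and 0.52 FPKM in ΔrsrB, and 11.5 and 7.70 FPKM in Δku70 replicates 2 and 3. With Δku70 replicate 2 in place of replicate 1, 1 gene was low in it and ΔrsrB, and with replicate 3, 0 genes were. The pair of Δku70 replicate 1 with ΔrsrA gave 17 genes. A limit of 0.5 FPKM gave 27 genes and a limit of 2 FPKM gave 23. What sets these numbers apart was not tested.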
